A study of Rattus norvegicus with 12 samples.

Results

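Liver microRNAs of rats given dextromethorphan alone (DEX) were compared with those of rats given the vehicle, over all features of the deposited table with a value above 0 in 3 or more of the libraries of these groups. The comparison uses 6 of the 12 libraries of the series, 3 Control and 3 DEX, and 271 of the 444 features listed, 265 of them microRNA genes. Male Sprague-Dawley rats of the Jcl:SD stock, 7 weeks old, were dosed by mouth on 5 days in a row. Control rats had sterile distilled water only, and DEX rats had 100 mg/kg dextromethorphan hydrobromide monohydrate dissolved in it. The series also holds a caffeine group at 120 mg/kg (CAF) and a group given both drugs at these doses (CAF+DEX), with 5 rats in each of the 4 groups and 3 libraries per group in the table. The labels name no transgene, deletion or further agent for any group, and liver was taken 1 h after the last dose. Which rat a library came from is not labelled, and p-values here reflect only how far these libraries differ among themselves, which may be partly technical. Libraries are named by the numbers in the headers of the deposited table, which are 1, 3 and 4 in Control, 1, 2 and 4 in DEX, and 1, 2 and 5 in CAF and in CAF+DEX.

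A microRNA is cut from a hairpin precursor to a strand of about the length of the sequences shown here, is loaded into an Argonaute protein, and lowers the translation and stability of messenger RNAs that pair with its seed, bases 2 to 8 of the mature strand. MicroRNAs that share a seed can act on overlapping sets of messengers and are grouped into families. In liver a small number of microRNAs made by hepatocytes dominates the pool, and microRNAs of blood cells, stellate cells, bile duct cells and vessels are present at lower levels. Dextromethorphan is a cough suppressant that blocks NMDA-type glutamate receptors and binds sigma receptors, and hepatic cytochrome P450 enzymes break it down to dextrorphan and other products.

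The sequences below belong to the microRNAs on which the comparison turns, and the seed is in capitals. They are the mature strands of RefSeq for the rat assembly GRCr8, matched by Ensembl gene ID or, failing that, by gene symbol or synonym. A mature strand was found for 229 of the 265 microRNAs tested. The deposited table counts whole hairpin genes, so the arm that gave the reads is not separated, and the arm shown is the one by which each family is known. The first pair shares the seed GAUAUGU, and the values of its genes are set side by side below. The miR-29b strand is made from 2 genes in the table. The 5 let-7 strands share the seed GAGGUAG. The remaining ones are the most abundant microRNA among the features listed and the 1 microRNA that differed between DEX and CAF.
miR-190b-5p (Mir190b): uGAUAUGUuugauauuagguu
miR-190a-5p (Mir190): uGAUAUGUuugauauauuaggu
miR-29b-3p (Mir29b1): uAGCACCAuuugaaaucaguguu
let-7a-5p (Mirlet7a1): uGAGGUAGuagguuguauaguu
let-7b-5p (Mirlet7b): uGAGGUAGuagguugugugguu
let-7d-5p (Mirlet7d): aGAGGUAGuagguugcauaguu
let-7f-5p (Mirlet7f2): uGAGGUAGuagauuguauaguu
let-7g-5p (Mirlet7g): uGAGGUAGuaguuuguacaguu
miR-192-5p (Mir192): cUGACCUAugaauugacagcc
miR-146a-5p (Mir146a): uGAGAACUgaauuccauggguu

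The libraries were alike in size and composition. They held 3103016 to 3418568 reads on listed features in Control and 2941725 to 3363795 in DEX, recovered from the deposited FPKM as described under processing. Between 262 and 272 features were above 0 in each of the 6 libraries. The 10 most abundant features took 59.5% of reads in Control and 58.6% in DEX (exact permutation test, two-sided, p = 0.4, where 3 libraries against 3 cannot go below 0.1). The hepatocyte list, 15 features that include Mir192, Mir101-2, Mir148a, Mir802 and both Mir194 genes, took 42.6 to 44.9% of reads in Control and 42.0 to 42.7% in DEX, and all 15 of its members were tested. In bulk tissue, fewer cells of a type and less RNA per cell cannot be told apart.

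Dextromethorphan alone was accompanied by no microRNA change that passed the test. Of the 271 features, 0 had a Benjamini-Hochberg adjusted p under 0.05 in limma (0.0%). An unadjusted p under 0.05 was reached by 13 features (4.8%), where 13.6 would be reached by chance alone, and limma-voom on the recovered reads also called 0, with 13 at an unadjusted p under 0.05. The features were split evenly, 139 higher and 132 lower in DEX, with a median log2 fold change of 0.004. Fold changes are differences of group means of log2(FPKM + 3.8), which understates the change of rare features. In 20 features all 3 DEX libraries lay above all 3 Control libraries (7.38%), and in 12 they all lay below (4.43%), 11.8% in either direction.

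The precision of this result depended on abundance. For 132 of the 271 features the 95% interval of the change lay within 1.5-fold in either direction, and for 187 it lay within 2-fold. Of the 92 features with at least 1000 reads per library, which hold 99.4% of all reads, 88 had an interval within 1.5-fold, and their median change was 0.07 in size on the log2 scale. Of the 83 features under 10 reads, 0 had such an interval and 17 had an interval within 2-fold. Changes of rare microRNAs were not detectable at this depth unless they were large.

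**Figure D1:**
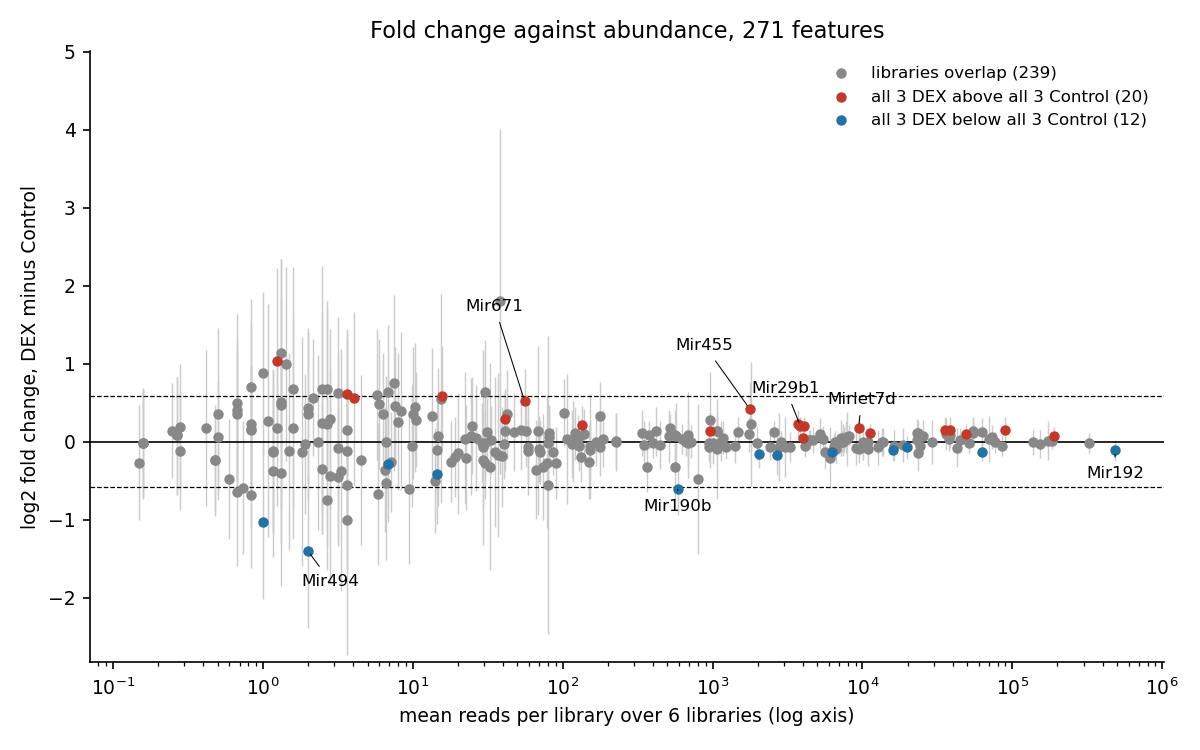
Log2 fold change of DEX minus Control (vertical axis) against the mean number of reads per library over the 6 Control and DEX libraries (horizontal log axis), with 1 point for each of the 271 features. Grey vertical lines are 95% intervals and dashed lines mark 1.5-fold; the intervals narrow from left to right, and Mir190b stands apart below 0 among features with more than 100 reads.

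Mir190b, a member of the miR-190 family (ENSRNOG00000041245, chromosome 2, 175514800 to 175514877, plus strand, rn7), had the smallest p of all features. Its levels were 2966, 2170 and 3409 FPKM in Control libraries 1, 3 and 4 and 1700, 1846 and 1974 FPKM in DEX libraries 1, 2 and 4. All 3 DEX libraries were below the lowest Control library, library 3, and the Control libraries were spread more widely than the DEX libraries. The group means were 2848 ± 628 FPKM (SD, n = 3) and 1840 ± 137 FPKM (SD, n = 3), a log2 fold change of -0.61 (SE 0.15, 95% interval -0.94 to -0.27, limma adjusted p = 0.26), and so it did not pass. Over the alternatives its adjusted p ran from 0.0236 without Control library 3, with a change of -0.79, to 0.996 without Control library 1. The other dosed groups were also lower than Control in the mean: CAF minus Control was -0.41 (SE 0.15, limma adjusted p = 0.269), with CAF libraries at 2122, 2125 and 2066 FPKM, all below Control, and CAF+DEX minus Control was -0.46 (SE 0.15, limma adjusted p = 0.337). These 3 comparisons share the Control libraries. DEX minus CAF, whose difference of means does not use them, was -0.20 (SE 0.15, limma adjusted p = 0.656). Its SE and p still rest on a spread taken from all 12 libraries, Control included. All 3 DEX libraries were below all 3 CAF libraries, and 18.1% of all features did not overlap between these groups in either direction. Mir190, the gene of the strand with the same seed, which in mammals lies in an intron of a talin gene (chromosome 8, 67850987 to 67851071, minus strand), was at 25699 to 27682 FPKM in Control and 25720 to 27307 FPKM in DEX. Its groups overlapped fully, with a log2 fold change of 0.00 (95% interval -0.12 to 0.12). Mir190 had 7299 reads per library and Mir190b 587.

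Mir29b1 and Mir29b-3, the genes of miR-29b, which represses collagen transcripts in stellate cells and other fibroblast-like cells, came next by p. Mir29b1 (ENSRNOG00000035463, chromosome 4, 59650986 to 59651067, minus strand) was at 13215, 13595 and 14163 FPKM in Control and at 15260, 16127 and 15617 FPKM in DEX. Every DEX library was above every Control library, and the libraries within a group lay close together. The log2 fold change was 0.20 (SE 0.05, 95% interval 0.08 to 0.31, limma adjusted p = 0.26), which did not pass, and it was 0.10 with quantile normalization. Mir29b-3 (chromosome 13, 106570367 to 106570456, plus strand) had the same change, 0.20 (95% interval 0.08 to 0.32), and 0.08 with quantile normalization. Both genes yield the same mature strand and share reads, so they are 1 signal, and with their reads summed the change was 0.20 (SE 0.05, limma adjusted p = 0.264). CAF libraries had the same level as DEX libraries: the difference of DEX minus CAF was -0.01 for Mir29b1 and -0.03 for Mir29b-3.

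The let-7 family, microRNAs that restrain growth and that rise as tissues mature, had 9 of 9 features higher in DEX in the group mean, 8 of 9 with quantile normalization. The differences were 0.07 to 0.18 on the log2 scale with a median of 0.12, or 0.08 with quantile normalization, against 139 of 271 features and a median of 0.00 over all. None of the 9 passed the test, and in 5 of the 9 the DEX libraries lay above the Control libraries without overlap. In this direction 7.38% of all features did so, and 12 of the 92 features with at least 1000 reads. Summed over the 9 features, let-7 took 15.7, 16.7 and 17.0% of reads in Control libraries 1, 3 and 4 and 17.2, 17.6 and 18.3% in DEX libraries 1, 2 and 4. The lowest DEX library was thus just above the highest Control library. The means were 16.5 ± 0.69% (SD, n = 3) and 17.7 ± 0.56% (SD, n = 3), a difference of 1.24 percentage points. The family was put on the list with earlier results of these data known, its genes share reads where mature strands are alike, and reads are a share of 1 fixed total, so the 9 directions are not separate observations.

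Mirlet7d (ENSRNOG00000035594, chromosome 17, 16115893 to 16115990, plus strand) had the smallest p in the family. It was at 26752, 29430 and 28250 FPKM in Control and 33398, 31030 and 31101 FPKM in DEX, with all DEX libraries above all Control libraries. Its log2 fold change was 0.18 (SE 0.06, 95% interval 0.05 to 0.30, limma adjusted p = 0.526). Mirlet7a1, which lies in the same cluster on chromosome 17 (16113768 to 16113867), had 0.15 (95% interval -0.02 to 0.32). Mirlet7b had 0.14, with overlapping groups, and Mirlet7g had 0.10, or 0.00 with quantile normalization. Mirlet7f2, the most abundant member with 5.9% of reads, was at 673213 to 722587 FPKM in Control and 723298 to 730098 FPKM in DEX, a change of 0.07 (95% interval -0.05 to 0.19) that was 0.00 with quantile normalization. The 4 other features, Mir98, Mirlet7c1, Mirlet7c2 and Mirlet7i, chosen after their values were seen, had 0.13, 0.11, 0.12 and 0.08. In CAF minus Control 5 were higher and 4 lower with a median of 0.01. In DEX minus CAF, which tests the difference between the drugs, 9 of 9 were higher with a median of 0.11, and 0 passed.

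Mir192 (ENSRNOG00000035530, chromosome 1, 203564946 to 203565055, plus strand), a hepatocyte microRNA, led the listed features in every library. Its share was smaller in DEX in the mean. Mir192 had 16.4, 15.5 and 15.1% of reads on listed features in Control and 14.3, 14.8 and 14.3% in DEX. All DEX libraries were below all Control libraries. The means were 15.7 ± 0.63% and 14.5 ± 0.32% (SD, n = 3 each), a log2 fold change of -0.11 (SE 0.06, 95% interval -0.25 to 0.02, limma adjusted p = 0.845), and 0.00 with quantile normalization, which gives the feature ranked highest in every library the same value by construction. Mir194-2, its neighbour in the same cluster (203564761 to 203564845), had -0.01 (95% interval -0.14 to 0.12) with overlapping groups.

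**Figure D2:**
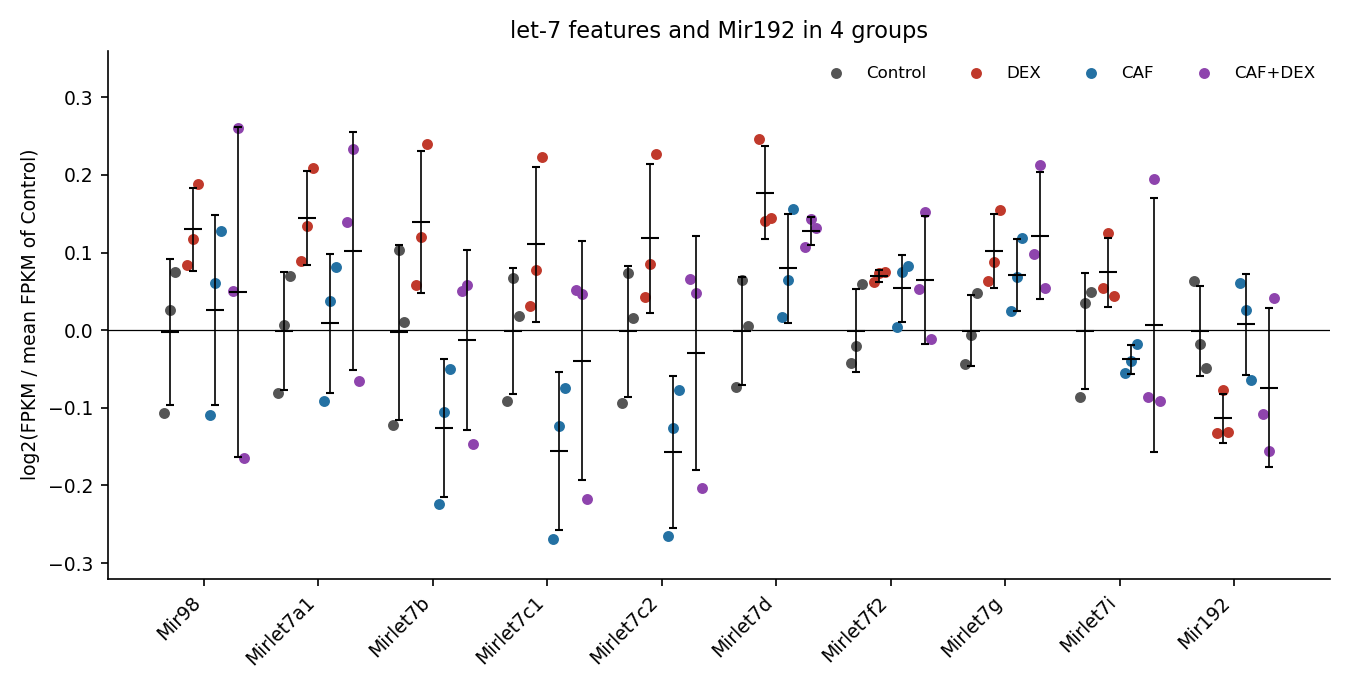
Level of each let-7 feature and of Mir192 in the 12 libraries, as log2 of FPKM over the mean FPKM of Control (vertical axis), by feature (horizontal axis). Points are libraries in grey for Control, red for DEX, blue for CAF and purple for CAF+DEX, with the mean and SD in black; DEX means lie above 0 in all 9 let-7 features and below 0 in Mir192, before any quantile normalization (which puts Mirlet7f2, Mirlet7g and Mir192 at 0.00), and the libraries of a group overlap those of other groups in many features.

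The other abundant liver microRNAs were at near-equal levels in both groups. Mir101-2, which represses chromatin-modifying enzymes in hepatocytes, took 10.1% of reads on average and had a log2 fold change of -0.02 (95% interval -0.14 to 0.11). Mir26b, with 5.73% of reads, had 0.01 (95% interval -0.09 to 0.12). Mir21, a microRNA that increases in injured and proliferating liver, was at 590426, 558662 and 604660 FPKM in Control and 549708, 572976 and 652418 FPKM in DEX. Its groups overlapped, with a change of 0.01 (95% interval -0.23 to 0.26). Mir148a, which is tied to hepatocyte differentiation, had -0.03, Mir16 had -0.01, Mir101a had -0.05 and Mir194-2 had -0.01, with all these intervals within 1.5-fold. Signs this close to 0 are not stable: Mir101-2, Mir101a, Mir26b, Mir21, Mir148a, Mir16 and Mir194-2 each took the other sign in 1 to 3 of 21 alternatives. The hepatocyte list had 8 members higher and 7 lower, with a median of 0.02. Mir455 had the largest change in it, and Mir22 is the other of its members with an unadjusted p under 0.05.

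Among the features with the smallest p that are higher in DEX, Mir455 showed a single high library. Mir455 (ENSRNOG00000036266, chromosome 5, 76689313 to 76689390, plus strand), which lies in a collagen gene and acts in cartilage and fat, was at 5824, 6342 and 5904 FPKM in Control and 10495, 6812 and 7322 FPKM in DEX. DEX library 1 was far above the other libraries, and DEX libraries 2 and 4 were above all Control libraries by a smaller margin. The log2 fold change was 0.42 (SE 0.16, limma adjusted p = 0.753), and 0.23 without DEX library 1. Mir671, with 55.8 reads per library, was at 132, 141 and 161 FPKM in Control and 194, 202 and 234 FPKM in DEX. Its groups did not overlap, with a change of 0.52 (SE 0.19, limma adjusted p = 0.599), and 0.17 with a pseudocount at the median of values above 0. Mir22, a microRNA of hepatocytes and heart with roles in lipid use, was at 35141 to 35886 FPKM in Control and 36834 to 40156 FPKM in DEX, a change of 0.11 (95% interval 0.00 to 0.22).

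Mir20a belongs to the miR-17-92 cluster, a set of microRNAs made from 1 transcript that promotes proliferation. Mir20a (ENSRNOG00000035605, chromosome 15, 92181084 to 92181168, plus strand) was at 12584, 13241 and 11753 FPKM in Control and 16109, 13460 and 14527 FPKM in DEX. All DEX libraries were above all Control libraries, library 2 by a small margin. Its log2 fold change was 0.23 (SE 0.08, limma adjusted p = 0.599). Of the 6 features of its cluster on chromosome 15 (92180629 to 92181413), 5 were higher and 1 lower in DEX, with a median of 0.11. Mir92a1 had 0.12 and Mir19b1 0.11, both with overlapping groups, while Mir17, named after its value was seen, was the lower member at -0.04. In the wider list with the paralog clusters, 8 of 14 tested members were higher and 6 lower, with a median of 0.10. Mir25, in a paralog cluster on chromosome 12 and chosen after its value was seen, was at 73983 to 76599 FPKM in Control and 69274 to 73795 FPKM in DEX, a change of -0.07.

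Among features lower in DEX, Mir27b and Mir339 had narrow intervals. Mir27b (chromosome 17, 1813426 to 1813529, minus strand), which represses lipid genes and cytochrome P450 transcripts, was at 193508, 202388 and 193320 FPKM in Control and 183822, 178285 and 176575 FPKM in DEX. All DEX libraries were below all Control libraries. The change was -0.13 (SE 0.06, 95% interval -0.25 to -0.01, limma adjusted p = 0.845). Mir27a, with which it shares most of its mature strand, had -0.01 (95% interval -0.24 to 0.22), with overlapping groups and the other sign in 3 of 21 alternatives. Mir339 (chromosome 12, 15277546 to 15277641, plus strand) was at 21282, 21603 and 20776 FPKM in Control and 19196, 20229 and 18684 FPKM in DEX. Its groups did not overlap, with a change of -0.13 (SE 0.05, limma adjusted p = 0.802). Mir301a, Mir3545 and Mir3559 also lay lower in every DEX library, at -0.16, -0.17 and -0.11 on the log2 scale, and each had a limma adjusted p of 0.845. Mir301a belongs to the miR-130 and miR-301 list, where 4 of 4 were lower, with a median of -0.18, beside 132 of 271 features over all, and 0 passed. Mir130a, its most abundant member with 10843 reads per library, had -0.01 (95% interval -0.18 to 0.16). It took the other sign in 2 of 21 alternatives. Mir130b and Mir301b, at -0.36 and -0.20, had 66.7 and 19.1 reads per library. Mir218-2, a microRNA of motor neurons and vessels, was at 1111, 1105 and 1203 FPKM in Control and 788, 784 and 1191 FPKM in DEX. DEX library 4 lay within the Control range and the other DEX libraries below it, and the change was -0.33 (SE 0.14), or -0.53 without DEX library 4.

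**Figure D3:**
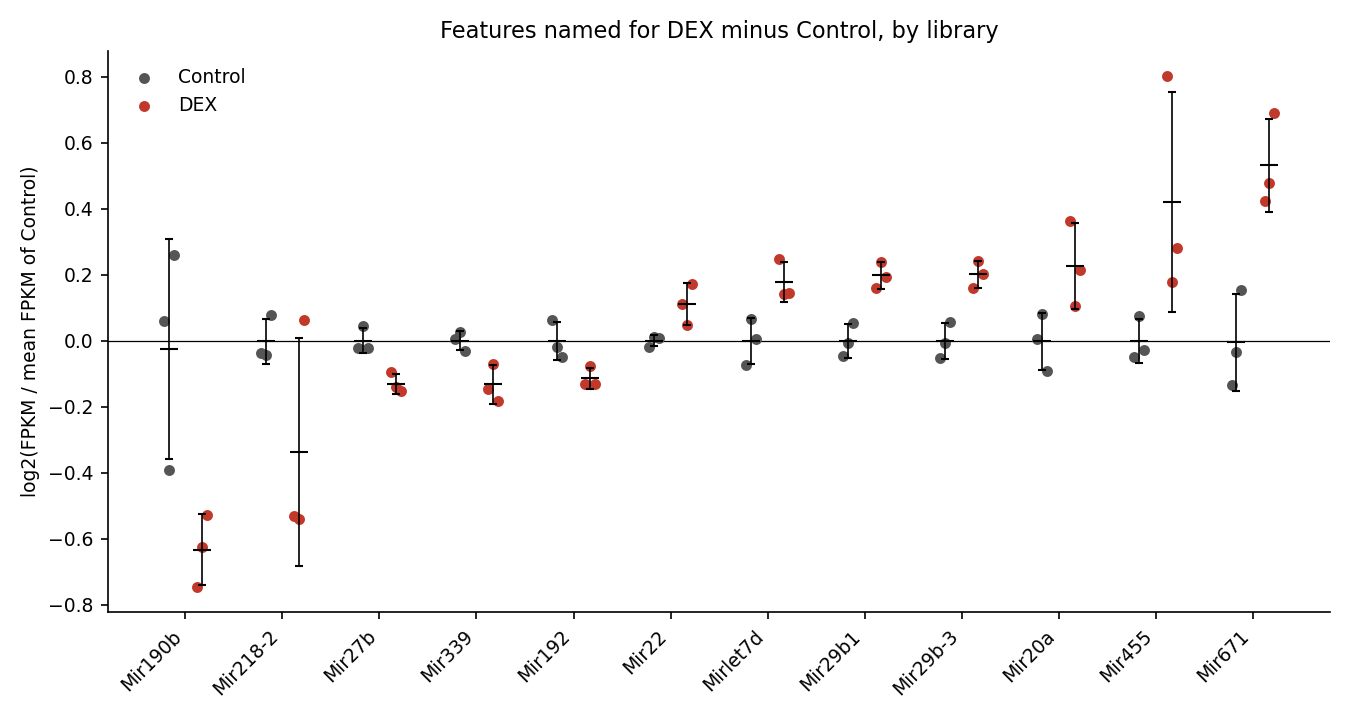
Level of 12 named features in the 3 Control (grey) and 3 DEX (red) libraries, as log2 of FPKM over the mean FPKM of Control (vertical axis), by feature (horizontal axis), with the mean and SD in black. Mir190b lies lowest in DEX, miR-29b genes and Mirlet7d have tight groups that do not overlap, Mir455 has 1 high DEX library, and Mir218-2 has 1 DEX library at the Control level.

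The features with the largest fold changes were rare. Mir293, chosen after its values were seen, had the largest change of all, 1.80 (95% interval -0.41 to 4.01, limma adjusted p = 0.845). It had 33, 2.5 and 27 reads in Control and 68, 77 and 23 reads in DEX, and the groups overlapped. Mir494, an imprinted microRNA, had 3, 3 and 4 reads in Control and 1, 0 and 1 reads in DEX, which is too few for a fold. Across the 271 features, 52 averaged at most 3 reads in both groups. In 0 features were all libraries of 1 group at 0 and all of the other above 0. Of the 173 features not tested, 123 were at 0 in all 6 libraries, 50 were above 0 in 1 or 2, and the highest averaged 0.67 reads.

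Lists of microRNAs with known ties to drug handling, stress and metabolism are given by their counts, beside a median of 0.00 over all features. Of 20 tested microRNAs that target transcripts of drug metabolism, such as cytochrome P450 enzymes, 9 were higher and 11 lower, with a median of 0.00, and 3 had an unadjusted p under 0.05 (4.8% of all features did): Mir27b, and Mir29b1 with Mir29b-3, which are 1 signal. Mir107, a regulator of insulin sensitivity in liver, had 0.12 (95% interval -0.08 to 0.31). Of 9 tested p53 and stress microRNAs, 5 were higher and 4 lower, with a median of 0.01. Mir34a, a direct p53 target, was at 16652, 25676 and 17058 FPKM in Control and 16057, 15157 and 19487 FPKM in DEX. The groups overlapped and Control library 3 was the highest, with a change of -0.21 (SE 0.18, limma adjusted p = 0.939), or -0.01 without that library. Of 13 tested lipid and glucose microRNAs, 9 were higher and 4 lower, with a median of 0.04, and the same 3 features, Mir27b, Mir29b1 and Mir29b-3, had an unadjusted p under 0.05 (4.8% over all). The miR-30 family, abundant in hepatocytes, had members between 0.00 and 0.06, of which Mir30b, Mir30c1 and Mir30d changed sign in 2 to 4 of 21 alternatives.

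The 12 tested microRNAs tied to neurons, where dextromethorphan has its main action, averaged 0.5 to 448 reads per library in these livers. Mir219a1 and Mir218-2 were the most abundant of them, at 448 and 365 reads. Mir132, which neuronal activity induces, had 5 to 9 reads in every library, with 8, 6 and 6 in Control and 5, 6 and 9 in DEX, and a change of 0.00 (95% interval -0.84 to 0.84). Mir212, from the same transcript, had 1, 2 and 1 reads in Control and 3, 0 and 0 in DEX, so no fold is given. Of 12 tested features of the neuron list, 4 were higher and 8 lower, with a median of -0.05, and Mir218-2 was the only one with an unadjusted p under 0.05. Mir124-1, Mir124-2, Mir124-3 and Mir218-1 of that list were above 0 in too few libraries to be tested. The 15 tested features listed for the imprinted Dlk1-Dio3 locus had 5 higher and 10 lower, with a median of -0.17. Their fitted values ran from -1.40 to 0.88, of which the lowest is that of Mir494 with the few reads given above. Mir6331, whose gene lies among them, was not on the list and is outside these counts. Mir136 of this locus was at 60.8, 74.9 and 145 FPKM in Control and 133, 162 and 123 FPKM in DEX, with overlapping groups and a change of 0.64 (95% interval -0.02 to 1.30). That change was 0.39 without Control library 1, 1.00 without Control library 4, and 0.14 with a pseudocount at the median of values above 0.

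Of the marker lists of other cell types, 0 members passed the test. The 7 leukocyte features, which include Mir142, Mir146a, Mir155 and Mir223, took 2.64 to 3.0% of reads in Control and 2.60 to 2.98% in DEX, with 2 higher, 5 lower and a median of -0.07. Mir142, a microRNA of all blood cell lineages, was at 121229, 128941 and 118051 FPKM in Control and 107645, 135052 and 107586 FPKM in DEX, a change of -0.08 (95% interval -0.33 to 0.17). DEX library 2 was the highest and the other DEX libraries the lowest of the 6. The 3 erythroid features had 0.101 to 0.121% of reads in Control and 0.0906 to 0.122% in DEX, with Mir144 at -0.07, Mir451a at 0.07 and rno-mir-486 at -0.26. Mir144 and Mir451a lie in 1 cluster, and each took the other sign in 2 and 1 of 21 alternatives. Mir143 and Mir145, microRNAs of smooth muscle and stellate cells, had 0.04 and 0.05, and Mir199a2, a stellate cell microRNA, had 0.03. All 4 members of that list, Mir214 included, were higher, by 0.03 to 0.07 with a median of 0.04, but 0 passed and each took the other sign in 1 to 4 of 21 alternatives. The 4 endothelial features had 2 higher and 2 lower, with a median of 0.03. Mir126a, whose matched mature strand was miR-126b, had 14.2 reads per library and a change of -0.50 (95% interval -1.17 to 0.18). Mir10b had 0.14, Mir221 0.08 and Mir222 -0.02. The 4 biliary features had 2 higher and 2 lower, with wide intervals: Mir200b had 0.22 (95% interval -0.57 to 1.02), Mir429 0.28 (-0.34 to 0.89), Mir141 -0.32 (-0.76 to 0.13) and Mir205 -0.36 (-1.16 to 0.45). Of the 5 striated muscle features 2 were higher and 3 lower, with a median of -0.07. Mir499a, planned for this list, was missed through its spelling and is outside these counts. It had 517 reads per library and a change of 0.17 (95% interval -0.02 to 0.36). Mir206 had 0.55 (95% interval -0.79 to 1.89), Mir133a-2, chosen after its value was seen, -0.07 (-1.33 to 1.18) and Mir1b -0.48 (-1.44 to 0.48). Mir208b, with 2.67 reads per library, had 0.68, or 0.01 and 1.74 with pseudocounts at the median and the minimum of values above 0. Mir133b had 0.28 reads per library. Mir1b was at 5784, 2184 and 2688 FPKM in Control and 2120, 2778 and 2114 FPKM in DEX, where Control library 1 was the highest.

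**Figure D4:**
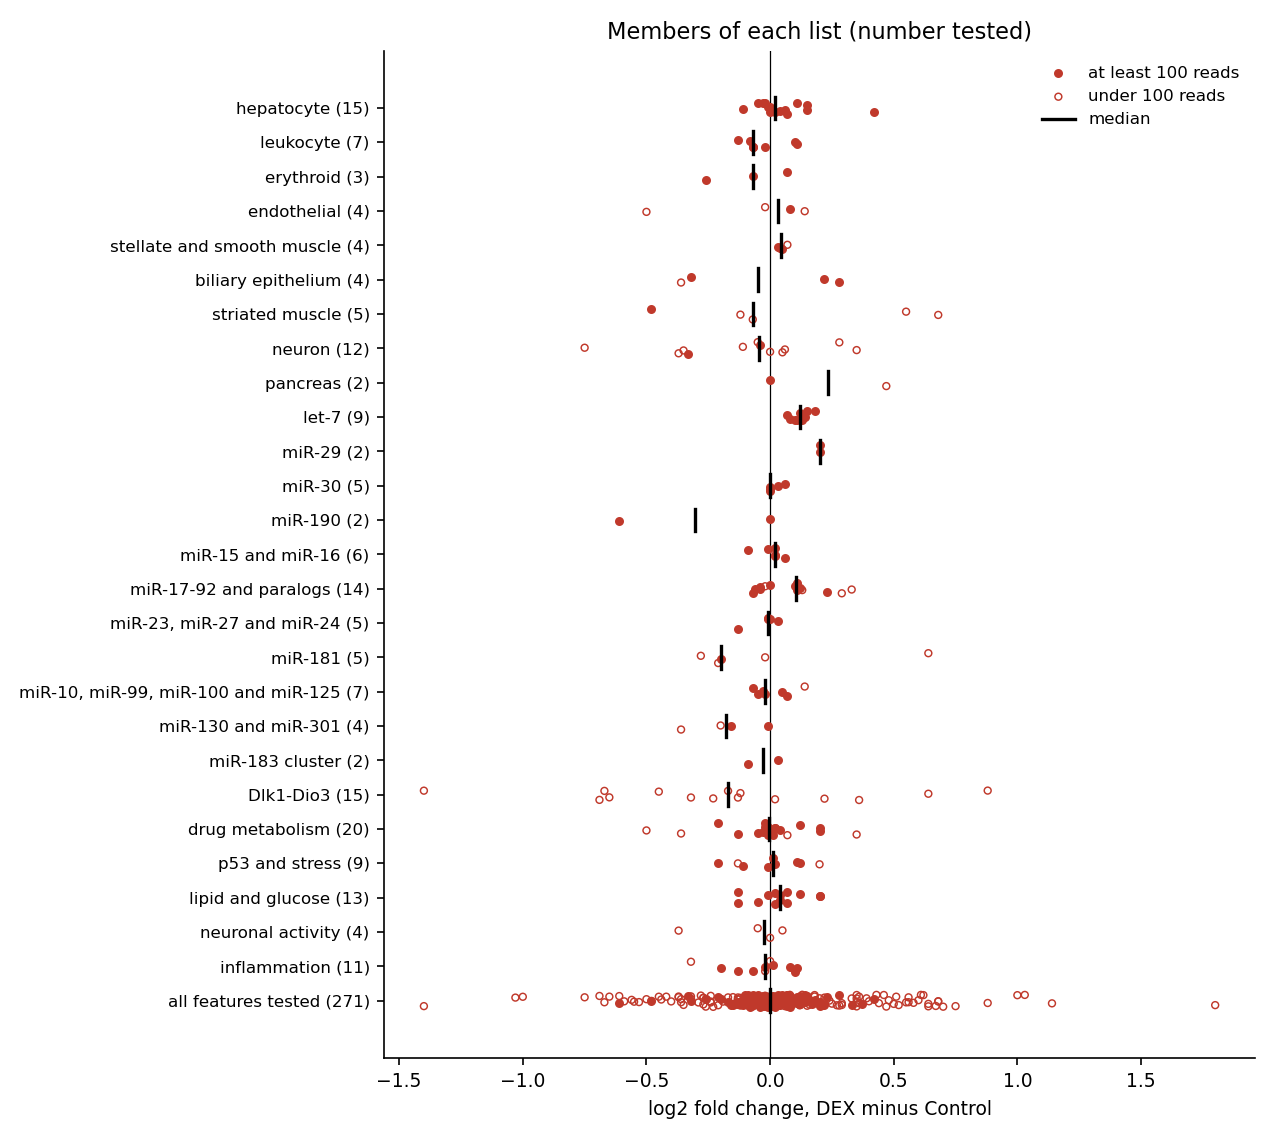
Log2 fold change of DEX minus Control (horizontal axis) for the members of each of the 26 lists and for all 271 features (vertical axis, number tested in brackets); filled points have at least 100 reads per library, open points fewer, and black bars are medians. Members of the let-7 list lie together above 0, and the widest ranges are those of rare features such as the Dlk1-Dio3 list.

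DEX was then set against CAF, which tests whether the difference from vehicle differed between the drugs and in which the Control mean cancels. The Control libraries still enter the spread shared by all groups. A single feature, Mir146a, passed (0.369% of 271). An unadjusted p under 0.05 was reached by 38 features (14.0%), and limma-voom also called 1, with 34 at that unadjusted level. In 49 features (18.1%) the DEX and CAF libraries did not overlap, and in 30 (11.1%) DEX was the higher group. Mir146a (ENSRNOG00000035466, chromosome 10, 27848516 to 27848610, minus strand), which restrains innate immune signalling through Toll-like receptors, was at 127851, 119513 and 116049 FPKM in DEX and 87940, 76047 and 77620 FPKM in CAF. The groups were far apart, and the Control libraries, at 105799, 129528 and 105763 FPKM, spanned the DEX level. The log2 difference of DEX minus CAF was 0.59 (SE 0.09, 95% interval 0.39 to 0.80, limma adjusted p = 0.0112). DEX minus Control was 0.10 (95% interval -0.11 to 0.30) and CAF minus Control was -0.49. The adjusted p ran from 0.00329 to 0.0955 over the alternatives, and the call was lost without DEX library 1, DEX library 2, CAF library 2 or CAF library 5.

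The other leukocyte features had the same direction in DEX against CAF. All 7 were higher in DEX, with a median of 0.47 against 0.02 over all features, and in 5 of the 7 the libraries did not overlap (11.1% of all features in this direction). Mir142 was at 93568, 80559 and 70813 FPKM in CAF, below every DEX library, with a difference of 0.52 (SE 0.12, limma adjusted p = 0.1). It did not pass, but it did without CAF library 1 (adjusted p = 0.0144) and without CAF+DEX library 1 (0.0424). Mir342 had 0.47 (SE 0.12, limma adjusted p = 0.117) and Mir155 had 0.53 (SE 0.17, limma adjusted p = 0.134). Other lists differed between DEX and CAF in both directions, with wide spread among rare members. Striated muscle, without Mir499a, had 4 of 5 higher in DEX with a median of 1.19, and neuronal activity 3 of 4 with a median of 0.80. Inflammation, which shares members with the leukocyte list, had 8 of 11 higher with a median of 0.29. Lower in DEX were 13 of 15 Dlk1-Dio3 features (median -0.38), 5 of 5 miR-30 features (-0.10) and 4 of 5 miR-181 features (-0.10). Of the 3 erythroid features, 3 were higher in DEX, with a median of 0.46, and 0 passed with all libraries. Mir144 and Mir451a passed without CAF library 1, which had 10979 FPKM of Mir144 against 6079 and 5791 FPKM in the other CAF libraries. The leukocyte features together took 2.60 to 2.98% of reads in DEX and 1.75 to 2.16% in CAF, beside 2.64 to 3.0% in Control.

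**Figure D5:**
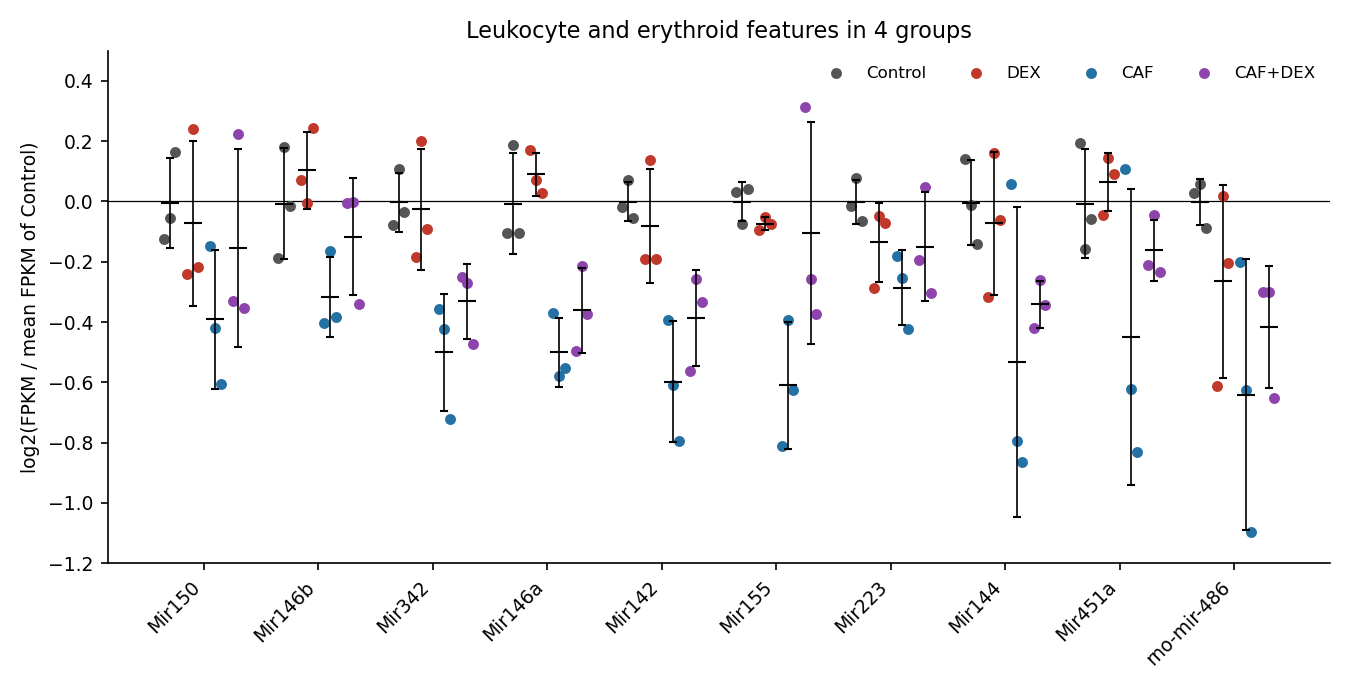
Level of the 7 leukocyte and 3 erythroid features in the 12 libraries, as log2 of FPKM over the mean FPKM of Control (vertical axis), by feature (horizontal axis), with points for libraries and the mean and SD in black. DEX libraries (red) lie around the Control libraries (grey), and most CAF libraries (blue) lie lower.

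Dextromethorphan was also given on top of caffeine, and that pair of groups shares no library with DEX and Control. The spread in the fit is still taken from all 12 libraries. In CAF+DEX minus CAF, 0 of 271 features passed in limma (0.0%), 15 had an unadjusted p under 0.05 (5.54%), and limma-voom called 0 with 13 at that level. Across both backgrounds, 6 libraries with the drug against 6 without, 0 passed (0.0%), 21 had an unadjusted p under 0.05 (7.75%) and limma-voom called 0 with 23. The interaction, the test of whether the drug's difference depended on caffeine, also called 0 (0.0%), with 14 at an unadjusted p under 0.05 (5.17%) in both tools. Of the 20 features that lay higher in every DEX library than in Control, 17 were higher in CAF+DEX than in CAF, and 1 did so without overlap. Of the 12 that lay lower, 5 were lower again and 0 without overlap. How many of all 271 features lay without overlap in this pair was not counted. The 20 include 5 let-7 features, both miR-29b genes and both Mir26a copies, which share reads, so they are not 20 separate observations. Over all features 53.9% had the same sign in both comparisons, and 50.2% were higher in CAF+DEX than in CAF. Pearson's r was -0.02 over all features, -0.14 over those with at least 100 reads and 0.31 over the 92 with at least 1000 reads. Spearman's rho was 0.01, 0.16 and 0.33 in the same order, and 63.0% of the 92 had the same sign. The features share libraries and sum to a fixed total, so these values are descriptions.

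Values of named members in that second pair stand beside those of the first. Mir190b had -0.05 (SE 0.15) in CAF+DEX minus CAF and -0.61 in DEX minus Control, and the interaction did not pass (limma adjusted p = 0.857). Mir29b1 had 0.04 (SE 0.05) and 0.20, and its interaction did not pass either (limma adjusted p = 0.908). The let-7 features were higher in 9 of 9, by 0.01 to 0.13 with a median of 0.05, and Mir192 was at -0.08 against -0.11. Summed, let-7 took 17.2, 18.2 and 15.7% of reads in CAF+DEX libraries 1, 2 and 5 and 15.5, 16.5 and 16.9% in CAF libraries 1, 2 and 5. These groups overlapped, as they did for Mir192, and 0 of the 9 let-7 features had an unadjusted p under 0.05 in limma. Mir26a and Mir26a-2, copies of a microRNA that improves insulin sensitivity in liver, had 0.16 in CAF+DEX minus CAF and 0.15 in DEX minus Control, where all DEX libraries lay above all Control libraries. These 2 copies share reads and count as 1 signal, and their change was 0.06 and 0.07 with quantile normalization.

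The 6 libraries were also compared as wholes. Over the 135 features with at least 100 reads, the root mean square difference in log2 level between a Control and a DEX library was 0.174 to 0.304 with a median of 0.229. Between libraries of the same group it was 0.187 to 0.278 with a median of 0.213. The range within groups lay inside the range between groups.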

How the data were processed

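Small RNA libraries were made from rat liver with a QIAseq kit that marks molecules with unique indices, per the labels' protocols; how these entered the counting is not stated in any source used. The submitters' processing notes name cutadapt 3.7, STAR 2.7.11b, featureCounts of Subread 2.0.6 and rn7. The unit is FPKM, computed by the authors; FPKM times length in kilobases summed to 1000000 in each library, so values are relative to reads on listed features. Read totals were recovered as those at which every value was a multiple of 0.01 read. Whole reads were found for 50.5 to 58.3% of features above 0, so no count model was used. Precision is limited by 3 libraries per group and, for rare features, by counting.

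The pseudocount of 3.8 FPKM is the 10th percentile of values above 0. A limma-trend fit (limma 3.58.1, R 4.3.3) took the log2 values of 12 libraries in 4 groups, with 8 residual degrees of freedom and Benjamini-Hochberg adjustment over 271 features, threshold 0.05; it was tested on simulated data. The comparison and the 26 lists were chosen with earlier results of these data known, and the spelling of 2 lists was widened once feature names were seen, so lists get counts and medians with no test. Named features were the 12 with the smallest p (leaving out those at or under 3 reads in both groups), the 10 most abundant, up to 6 each way with at least 100 reads and no overlap, up to 4 per list, Mir192, Mir21, Mir34a, Mir132, Mir212, the miR-190 genes, and those leading the other contrasts. Alternatives were other pseudocounts, filters and scalings, limma-voom on recovered reads, copies summed, the 6 libraries alone, and each library left out.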

Additional observations from a re-analysis of the deposited data

Results flagged for a closer look

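Mir146a differed between the drugs. Its log2 difference from Control was 0.10 in DEX and -0.49 in CAF, and the difference between these, DEX minus CAF, was 0.59 (SE 0.09, limma adjusted p = 0.0112). All 3 DEX libraries were above all 3 CAF libraries. The 7 leukocyte features took 2.60 to 2.98% of reads in DEX and 1.75 to 2.16% in CAF, and their part in the difference was not tested.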

How the results depend on the processing

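The count of features past the threshold in DEX minus Control was 0 under all 9 alternatives of filter, scaling, pseudocount, tool or samples, and 0 to 1 over the 12 fits that leave out a library; the 1 was Mir190b, without Control library 3. In DEX minus CAF the count was 0 to 4 over those 12 fits and 1 in the other alternatives. It was 0 without DEX library 1, DEX library 2, CAF library 2 or CAF library 5. It was 4 without CAF library 1, which added Mir144, Mir451a and Mir142, and 4 without CAF+DEX library 1, which added Mir323, Mir142 and Mir27b. The interaction count was 0 to 1 over those fits, the 1 being Mir218-2 without DEX library 4 (0.76, limma adjusted p = 0.0411). CAF+DEX minus CAF and the effect over both backgrounds stayed at 0 in every alternative. Features with an interval within 1.5-fold numbered 132, and 261 with a pseudocount at the median of values above 0, which shrinks all low values; leaving out a library gave 122 to 134. Where an arm keeps 2 libraries, its spread is taken from all groups. Of 99 named features 37 took the other sign in at least 1 alternative, none with a change over 0.22 in size. The let-7 features were all higher in every alternative except quantile normalization, where 8 of 9 were. No scaling moved the median of all features by more than 0.1. No paired analysis was possible because the columns carry their group but their numbers differ from those of the sample titles. Depth limits features under 10 reads, of which 0 of 83 were bounded to 1.5-fold.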

Other observations

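Library-level distances were also computed for each library. Over features with at least 100 reads, the mean root mean square difference in log2 level to the other 5 libraries was 0.254 for Control library 1, 0.253 for DEX library 1 and 0.199 to 0.215 for the other 4. Recovered read totals averaged 3243035 in Control and 3180824 in DEX (exact permutation test, two-sided, p = 0.7, smallest possible 0.1).

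Clusters of neighbouring genes gave further values. Mir25, Mir93 and Mir106b, within 1 cluster on chromosome 12, were lower in DEX in 3 of 3, by 0.04 to 0.07 on the log2 scale. Mir99a and Mirlet7c1, neighbours on chromosome 11, were at 0.05 and 0.11. Mir27b and Mir23b, neighbours on chromosome 17, were at -0.13 and 0.00. These genes were chosen after their values were seen, 0 of them passed the test, and no explanation was tested.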
